A study of Mus musculus with 2 samples.

Results

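Crypt stem cell and Wnt feedback genes were followed in tuft cells with and without the transcription factor gene Spib. The 9 genes were chosen by name for their known roles, with earlier results of these data known. They were found by symbol among the 17134 genes of the count table. Lgr5, Olfm4, Ascl2, Smoc2 and Lrig1 are markers of crypt base stem cells, and Axin2, Nkd1, Rnf43 and Znrf3 are feedback inhibitors of Wnt signalling.

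The tuft cells, rare chemosensory cells of the gut epithelium, came from the small intestine of naive mice and were sorted on 2 surface proteins, EpCAM of epithelial cells and the lectin Siglec-F of gut tuft cells. The group called Spib_KO here had the genotype Spib fl/fl Villin-cre and the group called WT had Spib+ Villin-cre, so both carried the Cre transgene, and each was represented by 1 library. Villin-cre acts throughout the intestinal epithelium, stem cells included, so the deletion was not restricted to tuft cells. The labels do not state the age, sex or strain of the mice or how many were pooled for a library. With 1 library per genotype there was no replicate check and no test between genotypes, and every value below describes these 2 libraries.

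In the small intestine, stem cells at the base of the crypt divide under Wnt signals and give rise to all epithelial cell types, tuft cells among them. Wnt proteins bind Frizzled receptors and LRP co-receptors, which stops the degradation of beta-catenin and lets it switch on target genes with TCF factors. Several targets feed back on the pathway: Axin2 and Nkd1 act inside the cell, on beta-catenin degradation and on Dishevelled, while the membrane ubiquitin ligases Rnf43 and Znrf3 remove Frizzled receptors. R-spondins, which bind Lgr5 and its relatives, relieve the block by Rnf43 and Znrf3.

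Gene counts summed to 17228684 reads in Spib_KO and 17925448 in WT. Spib had 48 reads in Spib_KO and 6266 in WT, which left 0.811% of the WT level (95% interval 0.592% to 1.07%). Siglecf had 1048 CPM (a read count scaled to library size) in Spib_KO and 953 CPM in WT, and Epcam had 1653 CPM in Spib_KO and 1721 CPM in WT. All 19 tuft cell markers of a fixed list were measured, 18 of them were neither higher nor lower by the rule given next, and their summed level was 19317.5 CPM in Spib_KO and 20228.2 CPM in WT. The exception was Plcb2, a phospholipase of taste-type signalling, which fell to 321 CPM in Spib_KO, against 682 CPM in WT. Markers short of the rule also differed, and 2 are named after their values were seen. Sucnr1 had 75.6 CPM in Spib_KO and 35.3 CPM in WT, and Trpm5 had 1964 CPM in Spib_KO and 2891 CPM in WT.

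A gene was counted as measured if it had at least 5 CPM and 30 reads in 1 library or both. A gene that met this in 1 library only entered through the library where it was higher, so the minimum fixed the direction of its ratio. A call, higher or lower, required that the whole 95% counting interval of its log2 ratio, Spib_KO over WT, lay at or beyond 1 or -1, a 2-fold difference. Of the 9 genes 8 were measured, and Axin2 was below the minimum in both libraries. Nkd1 was called lower, no member was called higher, and 8 were not called. Nkd1 met the minimum in WT alone. Fzd7, Dll4, Slc25a26 and several cell type markers that were called, all given below, also met it in 1 library only. Over all 10707 measured genes 2.18% were called lower and 2.33% higher, together 4.51%, and the share among the members rests on Nkd1 alone. The median log2 ratio of the 9 genes was -0.07, within the quartiles of all measured genes, -0.26 and 0.28, whose median was 0.01.

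Levels between genes were compared in the deposited TPM values, which account for transcript length. Olfm4 was far above the other members, with 348 TPM in Spib_KO and 465 TPM in WT, and made up 75.3% (Spib_KO) and 79.0% (WT) of the summed TPM of the 9 genes. Smoc2 came next with 69.2 TPM in Spib_KO and 73.5 TPM in WT. The other 7 genes lay below the median of measured genes, which was 16.2 TPM in Spib_KO and 16.6 TPM in WT. Axin2 was lowest in both libraries, at 1.23 TPM in Spib_KO and 1.15 TPM in WT.

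The order in between differed. In Spib_KO it ran from Ascl2 through Rnf43, Lgr5, Lrig1 and Znrf3 to Nkd1, and the counting intervals of Lgr5 and Lrig1, and of Lrig1 and Znrf3, overlapped. In WT it ran from Lgr5 through Ascl2, Rnf43, Lrig1 and Nkd1 to Znrf3, and those of Lgr5 and Ascl2, of Ascl2 and Rnf43, and of Lrig1 and Nkd1 overlapped. Lgr5 thus stood at place 5 of 9 in Spib_KO and place 3 in WT, and Nkd1 at place 8 in Spib_KO and place 7 in WT. The amplified reads carried no molecular identifiers, so all intervals cover counting error only.

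**Figure D1:**
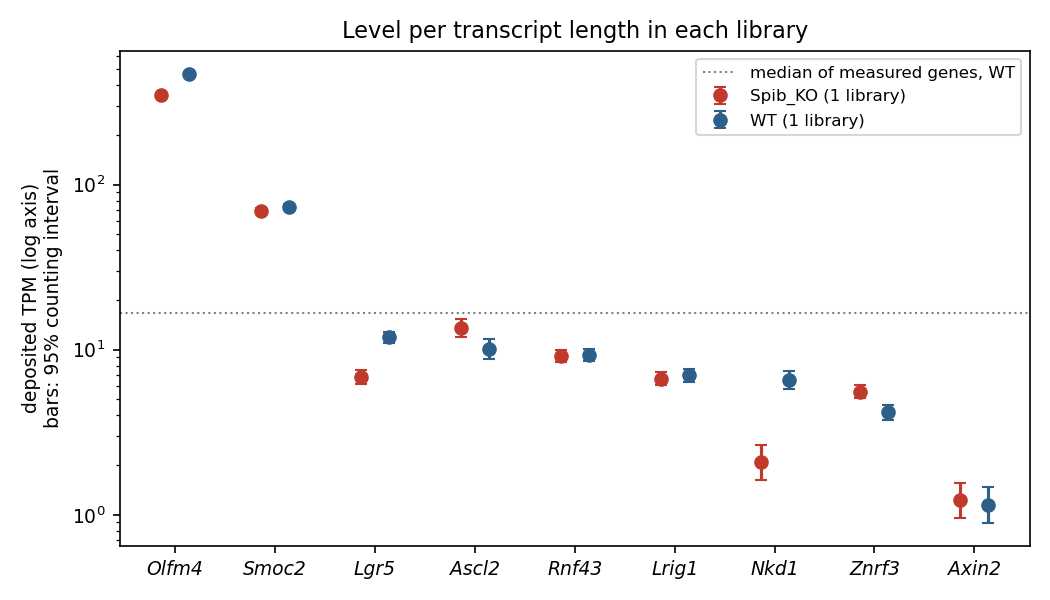
Deposited TPM of the 9 genes (vertical log axis) in the Spib_KO library (red, left of each pair) and the WT library (blue, right), with 95% counting intervals, in the order of the WT levels. Olfm4 at 348 (Spib_KO) and 465 TPM (WT) and Smoc2 at 69.2 (Spib_KO) and 73.5 TPM (WT) stand above the other genes, and the widest gap between libraries is that of Nkd1, with 2.08 TPM in Spib_KO and 6.54 TPM in WT.

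Lgr5 encodes the R-spondin receptor by which crypt base stem cells are most often recognised, on chromosome 10 from 115450314 to 115587780 (GRCm38.p6). It had 421 reads or 24.5 CPM in Spib_KO (95% Poisson interval 22.2 to 27.0) and 760 reads or 42.2 CPM in WT (39.3 to 45.3). The Spib_KO level was 58.1% of the WT level (51.4% to 65.5%), a log2 ratio of -0.78 (-0.96 to -0.61). This interval lay wholly below 0 and stopped short of the 2-fold bound, so Lgr5 was not called. It is the only member whose deposited counts are not whole numbers. Another protein-coding gene, absent from the counted genes, overlaps Lgr5 over 12469 bases. Whether reads from that gene entered the Lgr5 count was not tested.

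Olfm4 encodes a secreted glycoprotein, olfactomedin 4, made in quantity by crypt base cells and known as a target of Notch signals. Its 12120 reads in Spib_KO gave 706 CPM (694 to 719) and its 16780 reads in WT gave 932 CPM (918 to 947). The log2 ratio was -0.40 (-0.43 to -0.37), a level of 75.7% of WT that the depth of these libraries placed well away from equality and from a 2-fold difference.

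Ascl2, a transcription factor of the bHLH class that drives the stem cell programme and is itself a Wnt target, was on the other side of 0. It had 261 reads or 15.2 CPM in Spib_KO and 200 reads or 11.1 CPM in WT, a log2 ratio of 0.45 (0.18 to 0.73). The intervals of Ascl2 and Lgr5 were apart, and their log2 ratios differed by 1.23. Neither was called. None of the 3 class I bHLH genes whose products pair with Ascl2, namely Tcf3, Tcf4 and Tcf12, was called, with log2 ratios of 0.16, 0.13 and -0.08.

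Smoc2, a secreted calcium-binding matrix protein gene, was at nearly the same level, with 145 CPM in Spib_KO and 152 CPM in WT. Its log2 ratio of -0.07 had an interval of -0.15 to 0.01. Lrig1, a transmembrane inhibitor of ErbB and related receptors, had 437 reads or 25.5 CPM in Spib_KO and 523 reads or 29.1 CPM in WT, a log2 ratio of -0.19 (-0.38 to -0.0045). The deposited TPM of Lrig1 lay closer together, at 6.68 in Spib_KO and 6.98 in WT. The 3′ end of Lrig1 overlaps that of Slc25a26 by 131 bases, and reads of the pair cannot be told apart there without strand. Slc25a26, a mitochondrial carrier gene, had 49 reads in Spib_KO and 160 in WT, a log2 ratio of -1.63 (-2.13 to -1.17), and was called lower.

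Summed over the 5 stem cell markers, 15728 reads in Spib_KO and 21004 in WT gave a log2 ratio of -0.35 (-0.38 to -0.32). Olfm4 supplied most of these reads, and the median over the 5 genes was -0.19.

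**Figure D2:**
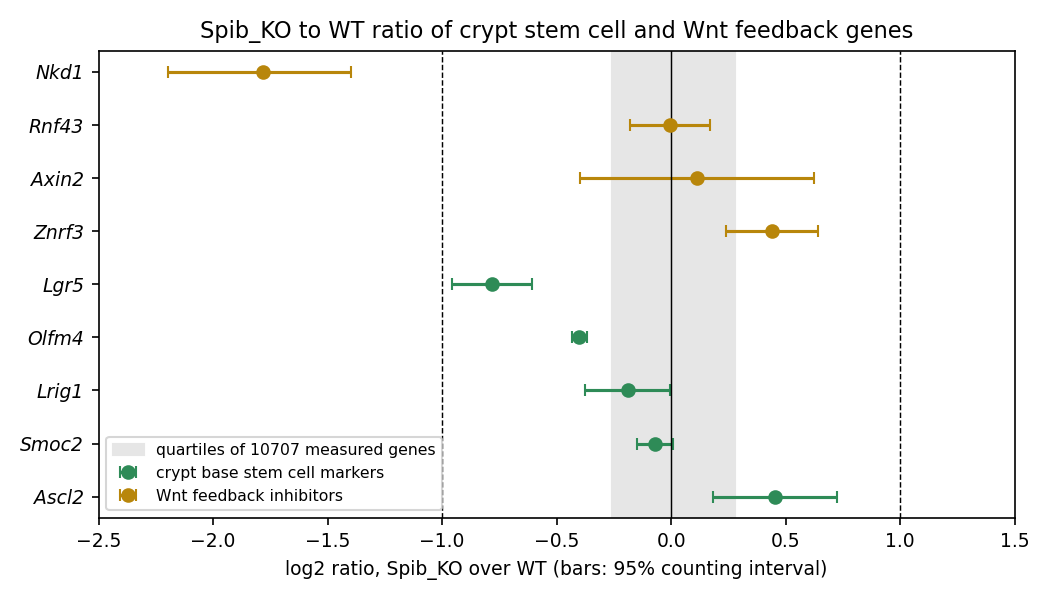
Log2 ratio of Spib_KO over WT (horizontal axis) for the 9 genes, with 95% counting intervals, Wnt feedback inhibitors above and stem cell markers below, in order of their ratios. The grey band spans the quartiles of all measured genes and the dashed lines mark a 2-fold difference, which the interval of Nkd1 passes (-2.19 to -1.40) and that of no other member.

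Nkd1, the Naked cuticle homologue that binds Dishevelled and dampens Wnt signalling, fell. It had 69 reads or 4.02 CPM in Spib_KO (3.13 to 5.09) and 250 reads or 13.9 CPM in WT (12.2 to 15.7). The level was 3.44-fold lower in Spib_KO, a log2 ratio of -1.78 (-2.19 to -1.40), or 29.1% of WT (21.8% to 37.9%). Ranked by log2 ratio it was number 145 from the lowest of the 10707 measured genes, and 97.4% of them differed less between the libraries. Its level in Spib_KO was below the minimum of 5 CPM, so it was measured through WT alone. It could therefore enter only with a ratio below 0, which limits what its rank and call show. Nkd1 is of low abundance, and with a minimum of 20 CPM in place of 5 it would not have been measured.

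The other feedback genes did not share this difference. Axin2, a scaffold of beta-catenin degradation and a widely used readout of Wnt activity, had 68 reads or 3.96 CPM in Spib_KO and 66 reads or 3.67 CPM in WT. Its log2 ratio was 0.11, and at this depth the interval of -0.40 to 0.62 spans 75.9% to 154% of the WT level. Rnf43 had 515 reads or 30.01 CPM in Spib_KO and 542 reads or 30.1 CPM in WT, a log2 ratio of -0.0051 (-0.18 to 0.17). Znrf3 had 471 reads or 27.4 CPM in Spib_KO and 364 reads or 20.2 CPM in WT, a log2 ratio of 0.44 (0.24 to 0.64).

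The interval of Nkd1 was apart from those of Axin2, Rnf43 and Znrf3, with log2 ratios that differed by 1.89, 1.78 and 2.22. Rnf43 and Znrf3, which act on the same receptors, were also apart from each other, by 0.44. Summed over the 4 genes, 1123 reads in Spib_KO and 1222 in WT gave a log2 ratio of -0.05 (-0.17 to 0.06).

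Of the 9 genes, 4 had an interval wholly below 0 (Lgr5, Olfm4, Lrig1 and Nkd1), 2 wholly above it (Ascl2 and Znrf3) and 3 an interval that held 0 (Smoc2, Rnf43 and Axin2). At this depth such intervals are common: they lay wholly to 1 side of 0 for 68.9% of all measured genes, below it for 33.8% and above it for 35.0%. The 6 of 8 measured members are close to that share, so an interval that leaves out 0 does not set these genes apart. The upper bounds of Lrig1, -0.0045, and of Smoc2, 0.0083, lie within the shifts between scalings. On which side of 0 these 2 bounds fall therefore depends on the scaling.

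**Figure D3:**
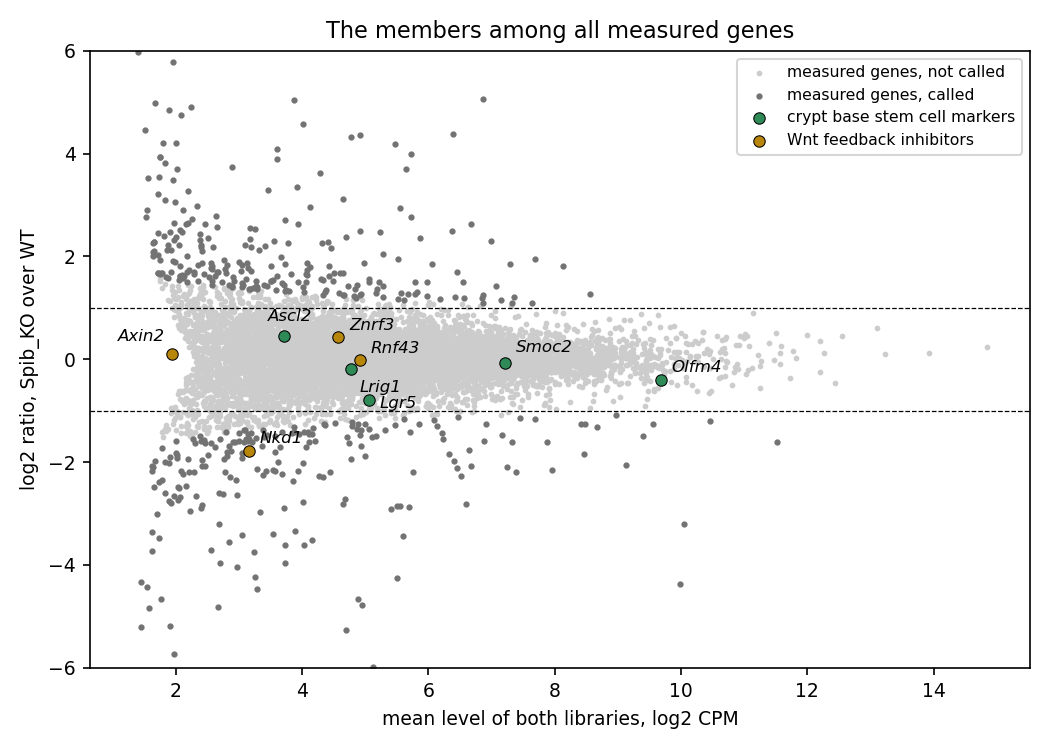
Log2 ratio of Spib_KO over WT against the mean log2 CPM of both libraries for the measured genes (light grey, not called; dark grey, called) and the 9 members (coloured). The dashed lines mark a 2-fold difference, 31 measured genes lie beyond the vertical axis at 6 and -6, and Nkd1 at -1.78 is the member outside the lines.

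Because Spib encodes an ETS factor, promoter sequences of 4 members are shown: Nkd1, which fell, Rnf43 and Axin2, feedback genes that were not called, and Olfm4, the most abundant member. Each runs from 250 bases before a transcript start to 50 after it, 5′ to 3′ on the gene's strand, from RefSeq sequence of GRCm38.p6, and the ETS core GGAA and its reverse complement TTCC are in capitals. The Nkd1 sequence is chr8:88527383-88527682, plus strand, and belongs to a start inside the annotated gene, which runs from 88521342 to 88594887. That of Rnf43 is chr11:87662837-87663136, plus strand, at the start of its gene. That of Axin2 is chr11:108920099-108920398, plus strand, also at a start inside its gene (108917828 to 108950783), and that of Olfm4 is chr14:80000052-80000351, plus strand.
Nkd1: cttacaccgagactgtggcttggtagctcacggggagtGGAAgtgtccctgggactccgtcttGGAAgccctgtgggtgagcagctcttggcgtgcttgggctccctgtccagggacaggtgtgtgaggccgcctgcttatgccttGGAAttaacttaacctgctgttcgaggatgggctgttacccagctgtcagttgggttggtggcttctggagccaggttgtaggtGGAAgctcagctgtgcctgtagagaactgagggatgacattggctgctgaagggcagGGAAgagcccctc
Rnf43: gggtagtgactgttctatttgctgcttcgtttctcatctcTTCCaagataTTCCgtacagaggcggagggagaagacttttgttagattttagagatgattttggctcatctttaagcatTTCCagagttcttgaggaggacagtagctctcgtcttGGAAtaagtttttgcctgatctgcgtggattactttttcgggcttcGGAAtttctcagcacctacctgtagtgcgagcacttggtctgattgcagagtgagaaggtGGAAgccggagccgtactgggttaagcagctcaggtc
Axin2: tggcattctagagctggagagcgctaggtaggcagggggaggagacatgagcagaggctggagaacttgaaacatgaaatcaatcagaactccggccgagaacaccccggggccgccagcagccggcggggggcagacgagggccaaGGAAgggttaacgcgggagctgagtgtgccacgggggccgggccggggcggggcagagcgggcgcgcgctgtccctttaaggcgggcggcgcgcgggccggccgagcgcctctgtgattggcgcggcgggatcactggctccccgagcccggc
Olfm4: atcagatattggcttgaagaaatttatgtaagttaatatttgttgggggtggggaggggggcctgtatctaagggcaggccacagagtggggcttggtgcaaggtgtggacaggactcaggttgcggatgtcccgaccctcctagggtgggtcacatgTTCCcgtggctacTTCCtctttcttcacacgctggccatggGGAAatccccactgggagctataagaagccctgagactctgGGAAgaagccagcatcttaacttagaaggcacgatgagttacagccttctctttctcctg

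The Nkd1 window holds 5 GGAA and 0 TTCC, the Rnf43 window 3 of each, the Axin2 window 1 GGAA, and the Olfm4 window 2 of each. Of the other windows in the table, that of a later Rnf43 start holds 3 GGAA and 1 TTCC, that of Ascl2 1 TTCC and that of Lrig1 neither. Among the 6 members with a window, the number of cores thus did not separate Nkd1 from those not called. Lgr5, Smoc2 and Znrf3, also not called, had no window. This core is short, and 96.0% of the 32851 promoters in the table hold it on either strand at least once, while 28.6% hold 5 or more. The longer GAGGAAG, which contains the core and is of the PU.1 and Spi-B type, is in the Olfm4 window once, as CTTCCTC, and in no other member's window. It is found on either strand in 13.6% of all promoters. The TCF motif CTTTGA, searched on both strands, is in none of these windows and in 16.0% of all promoters. These are matches of letters and say nothing of binding.

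Genes of the same pathways were taken from fixed lists. The paralogues of the members had 5 measured genes and 0 calls, with 1 of the 5 below 0. Lgr4, the R-spondin receptor of wider expression, had 118 CPM in Spib_KO and 100 CPM in WT, a log2 ratio of 0.24, and Axin1, the broadly expressed paralogue of Axin2, had 18.2 CPM in Spib_KO and 14.4 CPM in WT, a ratio of 0.34. Lrig3 had 11.3 CPM in Spib_KO and 15.8 CPM in WT, a ratio of -0.48. Smoc1, the paralogue of Smoc2, is named after its values were seen and differed most. It had 200 reads in Spib_KO and 85 in WT, a log2 ratio of 1.30 (0.93 to 1.69), short of the rule.

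Other crypt stem cell genes gave 0 calls among 15 measured, 5 of the 15 were below 0, and they ranged from -1.11 to 0.57. Their median log2 ratio was 0.20, above the 0.01 of all measured genes and on the other side of 0 from the -0.19 of the 5 stem cell markers above. Tert, named after its values were seen as the low end of this list, had 83 reads in Spib_KO and 188 in WT. Its log2 ratio was -1.11 (-1.50 to -0.73). Sox9, a transcription factor of crypt cells and tuft cells, had 688 CPM in Spib_KO and 559 CPM in WT, a log2 ratio of 0.30. Phlda1, a gene of the epithelial stem cell signature, had 549 CPM in Spib_KO and 386 CPM in WT, a ratio of 0.51, and Prom1, which encodes a cholesterol-binding protein of membrane protrusions, had 241 CPM in Spib_KO and 210 CPM in WT, a log2 ratio of 0.20.

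Other Wnt target genes gave 0 calls among 8 measured, with a median of -0.14 and ratios on both sides. Myc, the growth regulator, had 49.3 CPM in Spib_KO and 58.6 CPM in WT, a log2 ratio of -0.25, and the cyclin gene Ccnd1 had 17.2 CPM in Spib_KO and 23.5 CPM in WT, a ratio of -0.45. Bambi, a decoy receptor that inhibits BMP signals, had 132 reads in Spib_KO and 280 in WT, a log2 ratio of -1.01 (-1.33 to -0.71). Prox1 and Cd44, named after their values were seen as the ends of this list, had ratios of -1.14 (-1.31 to -0.96) and 1.14 (0.91 to 1.37).

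Of 5 measured Wnt receptor genes 1 was higher and 0 were lower. Fzd7, the Frizzled receptor known from mouse intestinal stem cells, rose to 128 reads or 7.46 CPM in Spib_KO, against 41 reads or 2.28 CPM in WT, a log2 ratio of 1.70 (1.19 to 2.26). The deposited TPM of Fzd7 were 2.03 in Spib_KO and 0.63 in WT, below the minimum of 5 set for calls on TPM. Of the Wnt and R-spondin genes in the table none reached the expression minimum. Wls, which carries Wnt proteins to the cell surface, was measured, with 37.9 CPM in Spib_KO and 42.8 CPM in WT. Wnt3, the ligand made by Paneth cells, had 1 read in Spib_KO and 33 in WT, a log2 ratio of -4.42 (-10.3 to -2.40).

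The core of the pathway was without calls. Among 14 genes of the beta-catenin destruction complex and Dishevelled, 4 were below 0, the median was 0.25 and the range was -0.78 to 0.66. Ctnnb1, which encodes beta-catenin, had 178 CPM in Spib_KO and 161 CPM in WT, a log2 ratio of 0.15, the kinase gene Csnk1a1 had a ratio of 0.24 and Dvl1, a Dishevelled gene, -0.01. Among 10 measured genes of the TCF complex 4 were below 0, the median was 0.05 and the range was wider, -1.09 to 1.02. Tcf7l2, the main TCF factor of the intestine, had 331 CPM in Spib_KO and 296 CPM in WT, a ratio of 0.16. Ctnnbip1, an inhibitor of the pairing of beta-catenin with TCF, had 46.6 CPM in Spib_KO and 29.9 CPM in WT, a ratio of 0.64, and the corepressor gene Tle3 had a ratio of 0.01. Secreted inhibitors and their receptors had 3 measured genes, Sfrp5, Kremen1 and Kremen2, with ratios of 0.02, -0.68 and 1.04 and no call.

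None of the 4 measured receptor genes whose products Lrig1 restrains was called. Their log2 ratios were below 0, with a median of -0.28 and a range of -0.71 to -0.22. Erbb3 had 117 CPM in Spib_KO and 136 CPM in WT, Erbb2 had 72.7 CPM in Spib_KO and 88.6 CPM in WT, and Met had 24.6 CPM in Spib_KO and 29.7 CPM in WT. Among 10 measured Notch genes, Jag2, which encodes a ligand, rose with a log2 ratio of 1.37 (1.17 to 1.57), and Dll4, which encodes another, fell with -1.46 (-1.84 to -1.09). BMP signalling genes had 0 calls among 11 measured and a median of -0.13. Their most abundant members, Id1, Id2 and Id3, inhibitors of bHLH factors, had ratios of -0.08, -0.23 and -0.15. All 25 cell cycle genes were measured, 0 were called, 13 were below 0 and the median was -0.02. Their range was -0.91 to 0.50, and the most abundant in TPM, Stmn1, Birc5 and Hmgb2, were at -0.24, -0.11 and -0.09.

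**Figure D4:**
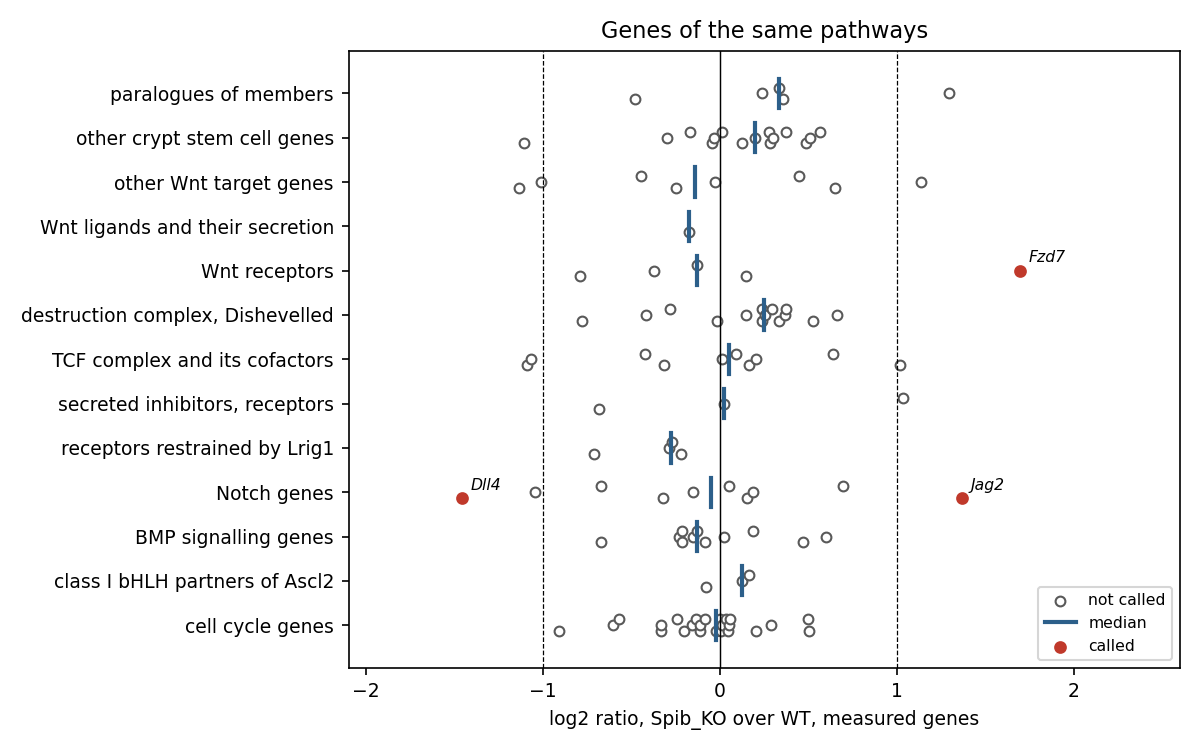
Log2 ratio of Spib_KO over WT (horizontal axis) of the measured genes of 13 lists, 1 list per row, with called genes filled and named and the list median as a vertical line. Fzd7 at 1.70, Jag2 at 1.37 and Dll4 at -1.46 are the called genes, and the medians lie between -0.28 and 0.34.

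Markers of other crypt cell types moved between the libraries as well. Paneth cells sit between the crypt base stem cells. Of 13 measured Paneth cell markers 10 were lower and 1 higher, and their summed level was 1120 CPM in Spib_KO and 2855 CPM in WT, a log2 ratio of -1.35 (-1.37 to -1.33). The largest falls among the markers named by the rule were those of the defensin genes Defa20, with 0 reads in Spib_KO and 1470 in WT, and Defa22, and of the pentraxin gene Mptx2 and the stress-response gene Nupr1, with log2 ratios of -5.99, -4.77 and -3.01. The marker called higher was Mptx1, named after its values were seen, with 439 reads in Spib_KO and 147 in WT, and Defa20 was the only listed marker at 0 in Spib_KO, while none was at 0 in WT.

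Goblet cell markers summed to 1432 CPM in Spib_KO and 2322 CPM in WT, with 4 of 10 measured genes lower (Fcgbp, Ccl6, Zg16 and Muc2). Of the 10, 9 had a log2 ratio below 0. Clca1, named after its values were seen, went the other way, with 431 CPM in Spib_KO and 269 CPM in WT. Its log2 ratio was 0.68 (0.63 to 0.74). Of 8 measured enteroendocrine markers 5 were lower, among them Cck, Gcg, Sst and Tph1, and 1 was higher. The marker called higher was Gip, named after its values were seen, with 144 reads in Spib_KO and 41 in WT. The list summed to 575 CPM in Spib_KO and 545 CPM in WT. Most of that sum was Sct, the secretin gene, named after its values were seen, with 533 CPM in Spib_KO and 404 CPM in WT. Without it the sum was 41.9 CPM in Spib_KO and 141 CPM in WT. Gcg and Tph1 were among 4 listed enteroendocrine genes at 0 reads in Spib_KO. Enterocyte markers gave 0 calls among 15, but 12 of the 15 were below 0 and their median log2 ratio was -0.47. Their sum was 17728 CPM in Spib_KO and 16337 CPM in WT, and it was higher in Spib_KO through Fabp1, a fatty acid-binding protein gene, at 10611 CPM in Spib_KO and 6968 CPM in WT. Without Fabp1 it was 7117 CPM in Spib_KO and 9369 CPM in WT. Apoa1 had 1133 CPM in Spib_KO and 1729 CPM in WT, and Rbp2 had 618 CPM in Spib_KO and 784 CPM in WT. Per transcript length, the enterocyte list summed to 49873 TPM in Spib_KO and 39800 TPM in WT. The tuft cell list summed to 15222 TPM in Spib_KO and 15406 TPM in WT. Fabp1 alone supplied 42931 TPM in Spib_KO and 30129 TPM in WT, and the rest of the enterocyte list was below the tuft cell list. In CPM the whole enterocyte list was also below the tuft cell list in both libraries.

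T cell markers summed to 5.83 CPM in Spib_KO and 56.0 CPM in WT, with all 4 measured genes lower (Gzma, Ccl5, Cd7 and Itgae). Myeloid markers summed to 21.4 CPM in Spib_KO and 30.6 CPM in WT, with Lyz2 lower among 3 measured. Of these 3, 2 had a log2 ratio below 0. The other, Adgre1, named after its values were seen, supplied 13.4 of the 21.4 CPM in Spib_KO. It had 230 reads in Spib_KO and 135 in WT, a log2 ratio of 0.83 (0.52 to 1.15), and was not called. No B cell or stromal marker was measured, and the B cell list summed to 2.39 CPM in Spib_KO and 5.83 CPM in WT and the stromal list to 4.60 CPM in Spib_KO and 6.06 CPM in WT. Nkd1, Lgr5, Olfm4 and Lrig1, whose intervals lay below 0, differed in the same direction as the Paneth, goblet and T cell sums, and Ascl2 and Znrf3 in the other. The part of these other cells in the levels of the 9 genes was not tested, and in a bulk library fewer cells of a type and less RNA per cell cannot be told apart.

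**Figure D5:**
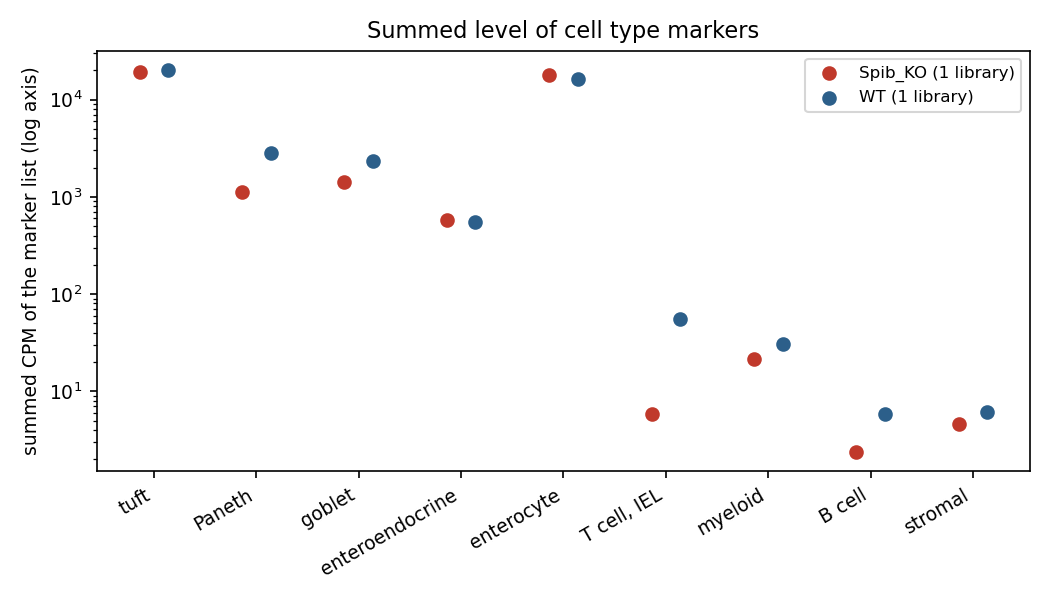
Summed CPM of 9 lists of cell type markers (vertical log axis) in the Spib_KO library (red, left of each pair) and the WT library (blue, right); IEL stands for intraepithelial lymphocyte. The tuft sums are close between libraries, the enterocyte and enteroendocrine sums are higher in Spib_KO through Fabp1 and Sct, the Paneth sum is 1120 CPM in Spib_KO and 2855 CPM in WT, and the T cell sum is 5.83 CPM in Spib_KO and 56.0 CPM in WT.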

How the data were processed

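Per the labels' protocols, TRIzol-extracted RNA was turned into amplified cDNA (SMART-seq2) and libraries were built with a transposase, which does not keep strand. HISAT and Bowtie2 2.2.3 and the build mm10 are named in the submitters' processing notes, with no counting program. The table deposited by the authors gives read counts, TPM and FPKM values per gene and library, per the file headers. The deposited read counts are estimated counts (expected counts), because 18.6% of genes in Spib_KO and 19.0% in WT have one that is not whole. They were rounded.

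Libraries were scaled with TMM factors (edgeR 4.0.16, R 4.3.3), giving effective totals of 17160543 for Spib_KO and 17996627 for WT. Log2 ratios used a prior count of 0.5 per library. Their 95% intervals were exact conditional binomial (Clopper-Pearson) intervals, and those of CPM and TPM exact Poisson intervals. No fold is given against a library with 0 reads. Scripts ran in Python 3.11.15 (scipy 1.17.1, numpy 2.4.6, pandas 2.3.3, matplotlib 3.10.9), and DESeq2 1.42.0 gave alternative size factors. The procedure was tested on simulated data.

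The 9 members, the 13 other gene lists and the 9 marker lists were chosen with earlier results of these data known. Named were the members, Spib, Epcam, Siglecf, up to 4 called genes of each list by the interval bound nearest 0 (otherwise the 3 highest in TPM) and measured genes that overlap a member. With 2 libraries a pattern is 1 ratio, so no genes of like pattern were sought. Positions and promoters are from RefSeq tables of GRCm38.p6, the assembly of mm10, and promoters were given for 6 members.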

Additional observations from a re-analysis of the deposited data

How the results depend on the processing

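Direction and call of each member were unchanged under DESeq2 size factors, total counts, no filter, the point-estimate rule, a prior count of 5 and deposited TPM or FPKM, and under the upper quartile except that Rnf43, not called, was 0.0020 there. Nkd1 ranged from -1.79 to -1.72 on counts and was -1.29 on TPM and -1.23 on FPKM, each on the log2(value + 1) scale. It was the 1 member lower except with a minimum of 20 CPM, which leaves Nkd1 out, or an interval bound of 2. Either of these left 0 members lower. Leaving the listed genes of other cell types out of the count took out no member and left Nkd1 lower. That step does not correct the level of Nkd1 for those cells. The counts over all genes, 250 higher and 233 lower, moved by over 1.5 times where the rule admits more or fewer genes: to 595 and 716 with no filter, 101 and 106 with 20 CPM, 425 and 419 by point estimate, and 65 and 88 with a bound of 2. With FPKM 165 were higher, and the cause was not tested. Fzd7 was not called on TPM, where it is below the minimum. In alternatives chosen after seeing the data, the log2 ratios of the summed enterocyte and enteroendocrine markers, 0.12 and 0.08, were -0.40 without Fabp1 and -1.75 without Sct. No paired analysis was possible because each genotype had 1 library. Depth limits Axin2 most.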

Other observations

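Several Wnt pathway genes below the expression minimum had reads almost only in 1 library, and they are named here after their values were seen. Porcn, the enzyme that attaches a lipid to Wnt proteins, had 26 reads in Spib_KO and 0 in WT, and the ligand gene Wnt11 had 16 reads in Spib_KO and 0 in WT. Wnt6, another ligand gene, had 30 reads in Spib_KO and 1 in WT, a log2 ratio of 4.40 (2.39 to 10.3). Notum, a secreted enzyme that inactivates Wnt proteins, had 32 reads in Spib_KO and 5 in WT, a log2 ratio of 2.63 (1.38 to 4.46). In the other direction, Nkd2, the paralogue of Nkd1, had 0 reads in Spib_KO and 22 in WT, and the stem cell gene Tnfrsf19 had 0 reads in Spib_KO and 17 in WT. None of these reached 2 CPM in either library. With no filter on counts, 595 of 17120 genes were higher and 716 lower, against 250 and 233 of the 10707 measured. Large differences below the minimum were thus not particular to Wnt pathway genes.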
